A study of Mus musculus with 6 samples.

Results

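The genes described are those of the nuclear pore and of transport between nucleus and cytoplasm, read in germinal centre B cells. They were chosen by name: every Nup gene followed by a digit, every karyopherin alpha and beta (Kpn), exportin (Xpo), importin (Ipo) and transportin (Tnpo) gene, and 16 further genes named singly, among them Ran, Rcc1, Tpr and Nxf1. The rule found 60 of the 55401 genes in the count tables once the pseudogene Kpna2-ps was dropped, and 58 of the 60 passed a filter on low counts. Kpna7 and Nup62cl had no count in any library and were not tested.

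The RNA came from wild-type C57BL/6 mice given sheep red blood cells (SRBC) into the peritoneum, challenged with the same cells after 5 days and killed at day 12. Germinal centre B cells, the activated B cells that divide and mutate their antibody genes during an immune response, were sorted from spleen as a DP subset (3 libraries) and a DN subset (3 libraries), and polyadenylated RNA was sequenced with a stranded kit. All 6 libraries share genotype, strain, immunisation and batch label, and the labels do not say which surface markers the letters DP and DN stand for. The design text gives 3 mice, each the source of both subsets, but the labels leave unsaid which mouse each library came from, so the p-values measure the spread between these libraries, which may in part be technical.

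The deposited tables held 17509384 to 20538024 gene counts per DP library and 8904415 to 11897360 per DN library. With scaling by TMM, the trimmed mean of M-values, 8571 of 11296 tested genes passed edgeR's quasi-likelihood test at an adjusted p under 0.05, of which 4328 were higher and 4243 lower in DP. With library totals alone as the scale, the median tested gene moved by -0.20 on the log2 scale and 3290 genes were higher and 5355 lower in DP. B cell genes marked both subsets: all 12 germinal centre B cell markers were detected, and their summed level ran from 1830 to 1870 CPM (counts scaled to a common library size) in DP and from 3714 to 3780 CPM in DN, with 1 of the 12 higher (0 with library totals alone) and 11 lower in DP. Plasma cell markers summed to 388 to 402 CPM in DP and 595 to 618 CPM in DN, with 3 of 5 tested higher and 2 lower. The 2 lower, Jchain and Slamf7, averaged 154 and 95.7 CPM in DP and 277 and 216 CPM in DN. Sdc1, Prdm1 and Xbp1 rose by log2 fold changes of 1.77, 1.47 and 0.31. T cell markers summed to 58.2 to 60.4 CPM in DP and 50.7 to 58.7 CPM in DN, with 1 of 2 tested higher (0 with library totals alone) and 1 lower. Macrophage markers summed to 15.1 to 17.6 CPM in DP and 30.7 to 34.7 CPM in DN (1 of 8 tested higher, 0 with library totals alone, and 7 lower), erythroid markers to 16.2 to 18.5 CPM in DP and 63.5 to 73.6 CPM in DN (7 of 7 lower), and neutrophil markers to 0.889 to 1.29 CPM in DP and 3.93 to 5.66 CPM in DN (3 of 3 lower). Among the T cell markers Lck made up most of the sum, and Cd4, the lower one, averaged 0.570 CPM in DP and 1.27 CPM in DN. Cd3g and Il7r, not tested, averaged 0.192 and 0.158 CPM in DP and 0.792 and 0.430 CPM in DN. Cd3d, Cd3e, Cd8a, Trac, Trbc1 and Trbc2 were each at 0 in at least 1 library. The part of these cell type markers in the results on transport genes was not tested.

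The nuclear pore is a ring of nucleoporins set in the nuclear envelope: a scaffold of Y-shaped and inner ring complexes anchored by membrane proteins, a central channel filled with phenylalanine-glycine repeats, filaments on the cytoplasmic side and a basket on the nuclear side. Importins carry proteins inward and exportins carry proteins and RNAs outward, and the small GTPase Ran gives the direction, since it is loaded with GTP by Rcc1 in the nucleus and made to hydrolyse it by Rangap1 in the cytoplasm. B cells that enter rapid growth must import histones and ribosomal proteins and export ribosomal subunits, tRNAs and mRNAs through this route.

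Promoter sequences of 4 of the genes are shown because these genes had the largest rises among members whose promoter window holds the letters CACGTG, the palindromic E-box that factors of the Myc family bind. RefSeq windows of 300 bases (250 before and 50 after the annotated start, GRCm38.p6, written along the transcript) were found for 47 of the 58 tested members; the E-box is in capitals. The windows are Ipo4 at chr14:55635635-55635934 (minus strand), Xpot at chr10:121626283-121626582 (minus strand), Ipo7 at chr7:110018065-110018364 (plus strand) and Ran at chr5:129019906-129020205 (plus strand).
Ipo4: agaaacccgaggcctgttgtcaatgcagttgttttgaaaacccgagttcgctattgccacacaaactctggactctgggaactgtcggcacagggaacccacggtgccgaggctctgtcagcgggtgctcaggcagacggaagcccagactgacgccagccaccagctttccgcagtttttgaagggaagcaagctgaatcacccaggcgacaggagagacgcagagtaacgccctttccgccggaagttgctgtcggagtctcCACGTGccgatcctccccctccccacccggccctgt
Xpot: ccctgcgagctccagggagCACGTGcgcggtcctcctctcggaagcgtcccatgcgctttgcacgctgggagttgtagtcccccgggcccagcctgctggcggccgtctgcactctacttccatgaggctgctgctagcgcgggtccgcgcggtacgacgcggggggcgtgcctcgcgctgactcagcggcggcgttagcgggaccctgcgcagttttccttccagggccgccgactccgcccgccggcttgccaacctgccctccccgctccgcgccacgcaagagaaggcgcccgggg
Ipo7: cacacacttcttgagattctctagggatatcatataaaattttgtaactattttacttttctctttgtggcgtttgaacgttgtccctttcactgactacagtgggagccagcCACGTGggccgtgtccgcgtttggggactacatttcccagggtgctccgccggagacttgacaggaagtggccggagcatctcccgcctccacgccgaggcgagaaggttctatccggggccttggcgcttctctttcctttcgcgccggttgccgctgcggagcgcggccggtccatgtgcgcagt
Ran: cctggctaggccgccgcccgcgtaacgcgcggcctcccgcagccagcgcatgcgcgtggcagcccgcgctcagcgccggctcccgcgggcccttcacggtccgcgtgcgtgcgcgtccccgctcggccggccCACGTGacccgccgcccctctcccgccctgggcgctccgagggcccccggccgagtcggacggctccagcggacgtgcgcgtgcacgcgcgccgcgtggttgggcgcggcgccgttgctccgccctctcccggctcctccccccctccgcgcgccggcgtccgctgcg

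The E-box lay 14 bases after the RefSeq start in Ipo4, and 231, 137 and 118 bases before it in Xpot, Ipo7 and Ran. CACGTG, which reads the same on both strands, was found in 9 of 47 members with a window (19.15%). It was in 12.35% of the 8436 tested genes with a window, 14.54% of those higher in DP and 10.2% of those lower in DP. A gene with more than 1 window was counted once, as a match if any of its windows matched. The other 5 genes with it, Nup188, Nup54, Nup93, Ranbp2 and Tnpo2, rose by log2 fold changes of 0.92, 0.79, 0.42, 0.28 and 0.82. Ranbp1, Nutf2, Xpo5, Rcc1 and Ipo5 rose by 1.78, 1.57, 1.56, 1.52 and 1.37 and had no CACGTG in their windows. In the GENCODE annotation Ipo4 and Rcc1, both on the minus strand, begin upstream of their windows, at 55635957 and 132353605. Which start these cells used was not tested. A tie between the motif and the rise was not tested. The letters CGCATGCG, the core of the NRF1 motif, were in 5 members with a window (10.64%, Nup107, Nup50, Nup62, Ran and Xpo5), against 4.836% of tested genes. CCGGAAG, searched on both strands as an ETS motif, was in 19.15% of members and 22.87% of tested genes with a window. ATTGG, the CCAAT box on either strand, was in 42.55% and 43.69%. No window was used for Cse1l, Kpna1, Kpna3, Kpna6, Nup210l, Nup35, Nup43, Nup85, Seh1l, Xpo4 and Xpo7. A match describes the letters in this window and not a bound site.

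Genes of nuclear transport were higher in DP than in DN cells almost throughout the set. Of the 58 tested members 53 rose in DP (91.4%), against 38.3% of all tested genes, and 2 fell, Ndc1 and Nup210l, against 37.6% of all tested genes. Nup107, Nup88 and Tpr did not pass the test; values per library are given for these 3 because they did not pass, a choice made after seeing them. With trends in GC content and length removed all 3 passed, Nup107 lower (-0.11) and Nup88 (0.16) and Tpr (0.17) higher, which made 55 members higher and 3 lower. The median log2 fold change of the members was 0.78, against 0.0061 over all tested genes. In bulk RNA, more of a message per cell and more cells of a type that carries it cannot be told apart.

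At least 2-fold rises were found in 15 members (25.9%), against 12.3% of all tested genes. The 3 DP libraries lay wholly above the 3 DN libraries in 53 members (91.4%), against 39.0% of all tested genes. With library totals alone 49 members rose and 6 fell, beside 29.1% and 47.4% of all tested genes, and the median member stood at 0.59. The members together took 1.135%, 1.135% and 1.140% of all gene counts in DP, against 0.843%, 0.832% and 0.826% in DN. The DP shares were all above the DN shares, and an exact two-sided permutation test over libraries gave p = 0.1, the smallest value that 3 against 3 allows.

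**Figure D1:**
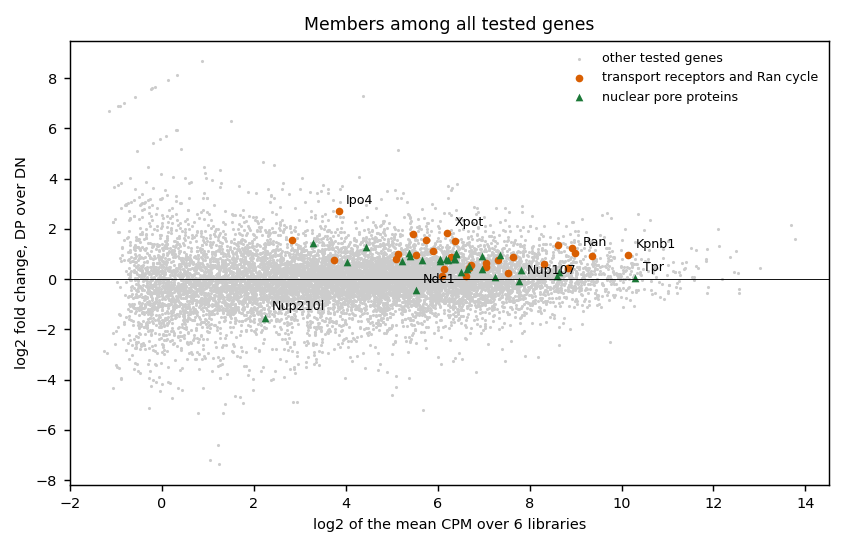
Log2 fold change of DP over DN (y axis) against mean level in log2 CPM (x axis) for the 11296 tested genes (grey) and the 58 tested members (coloured). Of the members, 53 passed the test above 0 and 2 below it.

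Carriers and pore proteins are given apart. All 29 tested transport receptors and Ran cycle genes rose (26 with library totals alone), with a median log2 fold change of 0.89 and 11 at least 2-fold higher in DP. Of the 29 nuclear pore proteins 24 rose, 2 fell and 3 did not pass (23 rose and 6 fell with library totals alone), with a median of 0.72 and 4 at least 2-fold higher (13.8%, near the 12.3% of all tested genes; the share was 37.9% among the transport genes). Summed as RPKM, a CPM divided by exon length in kilobases, so that genes of unlike length can be added, the transport genes reached 1379 ± 7.79 RPKM in DP and 738 ± 5.50 RPKM in DN (SD, n = 3 each), a ratio of 1.87. The pore proteins summed to 715 ± 5.17 RPKM in DP and 553 ± 3.82 RPKM in DN, a ratio of 1.29. Tpr and Nup50 weigh heavily in the pore sum, at 122 and 81.8 RPKM in DP and 118 and 75.5 RPKM in DN. With library totals alone the ratios were 1.63 for the transport genes and 1.13 for the pore proteins. The DP libraries lay above the DN libraries in both sums (exact permutation p = 0.1 each).

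**Figure D2:**
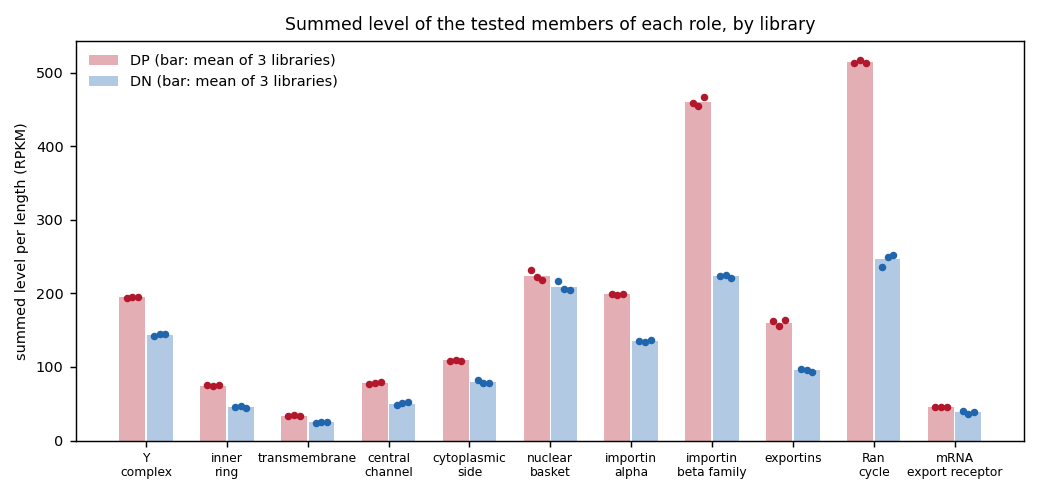
Summed level per library in RPKM for each role, DP left of DN, with points for libraries and bars for the mean of 3 libraries. The Ran cycle and the importin beta family had the largest ratios of DP to DN, 2.09 and 2.06, and the nuclear basket the smallest, 1.07 (0.935 with library totals alone).

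The Ran cycle sets the gradient on which importins and exportins depend, and its 5 genes all rose, with log2 fold changes of 0.91 to 1.78. Ran itself had 686, 693 and 678 CPM in DP and 310.0, 350.3 and 348 CPM in DN. Its DP libraries lay far above the DN libraries, and the log2 fold change was 1.03 ± 0.04 (SE, edgeR adjusted p = 1.55e-32). Ranbp1, which helps release Ran-GTP from export complexes for hydrolysis, had 72.1, 65.2 and 67.3 CPM in DP and 21.4, 19.9 and 17.7 CPM in DN. That was the widest gap in the cycle, a log2 fold change of 1.78 ± 0.07 (edgeR adjusted p = 5.58e-32). Nutf2, the carrier that returns Ran-GDP to the nucleus, had 10.4, 11.1 and 10.1 CPM in DP and 3.14, 3.15 and 4.51 CPM in DN. The groups did not overlap although 1 DN library stood above the other two, and the log2 fold change was 1.57 ± 0.15 (edgeR adjusted p = 3.24e-14).

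The 2 enzymes that act on Ran moved by unequal amounts; they were picked after their values were seen. Rcc1, the exchange factor bound to chromatin, had 122, 124 and 123 CPM in DP and 43.9, 41.8 and 43.0 CPM in DN, a log2 fold change of 1.52 ± 0.05. Rangap1, the cytoplasmic GTPase activator, had 842, 870.4 and 871 CPM in DP and 453, 454 and 470.4 CPM in DN, a log2 fold change of 0.91 ± 0.04. Within each library, the RPKM ratio of Rcc1 to Rangap1 averaged 0.181 in DP and 0.118 in DN. That of Ranbp1 to Ran, also picked afterwards, averaged 0.158 and 0.0937. Neither ratio overlapped between groups (exact permutation p = 0.1 each). Such ratios do not depend on the scaling between libraries. Ratios of further pairs, also picked with the values of the members known, were compared. Ipo5 to Kpnb1, Kpna6 to Kpna1, Nup43 to Nup107, Nup214 to Nup88 and Nup153 to Tpr did not overlap (exact permutation p = 0.1 each). These pairs set members of unlike fold change against each other, so their lack of overlap follows from the choice and is no separate result. Kpna3 to Kpna4 did overlap (exact permutation p = 0.2).

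Importins of the beta family, which carry cargo through the channel, rose in 11 of 11 genes, 4 of them at least 2-fold, though Ipo8 turned to -0.083 with library totals alone. Kpnb1, the partner of importin alpha for classical import signals, had 1481, 1491 and 1522 CPM in DP and 763, 779 and 763 CPM in DN. The groups were well apart and each was tight, with a log2 fold change of 0.96 ± 0.03 (edgeR adjusted p = 6.31e-34). Ipo4, an importer of histones and ribosomal proteins, had 25.3, 23.6 and 26.2 CPM in DP and 3.61, 3.98 and 3.90 CPM in DN. This was the largest rise of all 58 members, 6.55-fold, a log2 fold change of 2.71 ± 0.12 (edgeR adjusted p = 4.94e-29), and it rested on 427, 457 and 429 counts in DP and 46, 38 and 38 in DN. Ipo4 lies on chromosome 14 at 55625400 to 55635957 (mm10), and 55.3% of its exonic bases are shared on the same strand with the gene Gm49378. Gm49378 had no count in any library. How reads in shared bases were counted was not stated, so the Ipo4 counts may come from only part of its exons. Ipo5, another importer of ribosomal proteins and histones, had 564, 559.7 and 571 CPM in DP and 210.2, 227 and 219 CPM in DN. The DP libraries were all higher, with a log2 fold change of 1.37 ± 0.04 (edgeR adjusted p = 1.21e-39).

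The closely related Ipo7 and Ipo8 had unequal log2 fold changes; this pair was chosen after the values were seen. Ipo7 had 708, 647 and 695 CPM in DP and 303, 276 and 276 CPM in DN, a log2 fold change of 1.26 ± 0.04. Ipo8 had 71.3, 68.9 and 70.6 CPM in DP and 60.1, 66.6 and 69.0 CPM in DN. Its groups overlapped, the log2 fold change was 0.11 ± 0.05 (edgeR adjusted p = 0.0495), and without DN replicate 1 it was 0.05 with an adjusted p of 0.396. The Ipo8 call was lost as well without DP replicate 1 and without DP replicate 3. Per library the RPKM ratio of Ipo7 to Ipo8 was 13.7 ± 0.406 in DP and 6.21 ± 0.793 in DN (SD, n = 3 each; exact permutation p = 0.1). By contrast the ratio of Tnpo1, the importer of hnRNP proteins, to its relative Tnpo2 averaged 3.32 in DP and 3.23 in DN, and its groups overlapped (exact permutation p = 0.9). The other 6 genes of the family, Ipo9, Ipo11, Ipo13 and the 3 transportins, rose by log2 fold changes of 0.57 to 1.01.

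Importin alpha proteins bind the classical nuclear localisation signal and hang on Kpnb1. All 5 tested paralogues rose, by log2 fold changes of 0.13 to 0.97 with a median of 0.50. Kpna6 had 61.8, 62.3 and 58.3 CPM in DP and 32.7, 29.8 and 30.2 CPM in DN. The groups stood apart, with the largest log2 fold change of the family, 0.97 ± 0.06 (edgeR adjusted p = 1.64e-21). Kpna2, the paralogue associated with proliferating cells, had 381, 382 and 382 CPM in DP and 249, 245 and 256 CPM in DN. The DP libraries hardly varied and lay above all DN libraries, with a log2 fold change of 0.61 ± 0.04 (edgeR adjusted p = 1.03e-22). Kpna1, named after its values were seen, had 103, 102 and 104 CPM in DP and 99.9, 86.4 and 95.6 CPM in DN; its log2 fold change of 0.13 ± 0.05 (edgeR adjusted p = 0.0141) became 0.08 without DN replicate 2 (adjusted p = 0.145) and turned to -0.069 with library totals alone.

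The makeup of the family was read within each library, as shares of the summed RPKM of the 5 paralogues. Kpna2 made up 66.8%, 67.1% and 66.8% in DP, against 64.0%, 63.7% and 65.2% in DN. The share of Kpna6 was 4.63%, 4.67% and 4.35% in DP and 3.59%, 3.31% and 3.29% in DN. The share of Kpna1 was lower in DP, with 6.10%, 6.05% and 6.17% in DP and 8.68%, 7.62% and 8.24% in DN, while its own level rose less than those of the others (log2 fold change 0.13). The groups did not overlap for these 3 paralogues or for Kpna3, which averaged 13.7% in DP and 15.0% in DN (exact permutation p = 0.1 each), whereas those of Kpna4 overlapped at 8.75% in DP and 9.11% in DN (p = 0.2, exact permutation test). The size of the Kpna2 share depends on the division by length: by counts alone it averaged 46.7% in DP and 43.7% in DN.

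**Figure D3:**
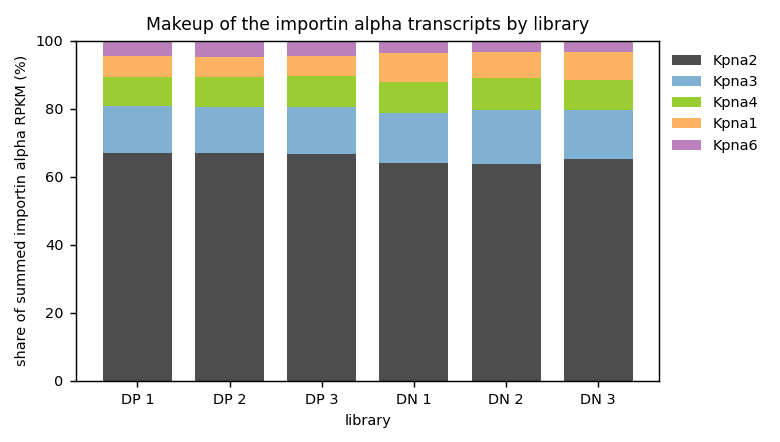
Stacked bars of each importin alpha paralogue's share in the family's summed RPKM (y axis, percent), 1 bar per library, DP left of DN. Kpna2 made up 63.7% to 67.1% in every library, and the Kpna1 share was lower in all DP libraries.

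All 7 exportins rose, 3 of them at least 2-fold. Xpot, the exporter of tRNAs, had 115, 113 and 117 CPM in DP and 31.8, 32.3 and 32.8 CPM in DN. Its DP libraries were far above the DN libraries, with a log2 fold change of 1.83 ± 0.05 (edgeR adjusted p = 6.02e-38). Xpo5, the exporter of microRNA precursors, had 77.0, 80.9 and 82.4 CPM in DP and 27.4, 26.7 and 27.1 CPM in DN. Both groups were narrow and apart, with a log2 fold change of 1.56 ± 0.06 (edgeR adjusted p = 3.68e-32). Xpo1 (CRM1), which carries proteins with leucine-rich export signals and ribosomal subunits, had 545, 506 and 543 CPM in DP and 402, 387 and 371 CPM in DN. The groups did not overlap, but the log2 fold change was smaller, 0.46 ± 0.04 (edgeR adjusted p = 7.02e-17; 0.26 with library totals alone). The RPKM ratio of Xpot to Xpo1, a pair chosen after the values were seen, averaged 0.258 in DP and 0.0995 in DN (exact permutation p = 0.1). The remaining exportins, Xpo4, Xpo6, Xpo7 and the importin alpha recycler Cse1l, rose by log2 fold changes of 0.42 to 1.13.

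Nxf1, the receptor for bulk mRNA export that works without Ran, had 203, 202 and 202 CPM in DP and 176, 157 and 174 CPM in DN. The DP libraries lay above the DN libraries, and the log2 fold change was 0.26 ± 0.04 (edgeR adjusted p = 1.23e-07), but with library totals alone it was 0.06 and did not pass (adjusted p = 0.167).

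Of the 9 tested genes of the Y complex, the scaffold's outer ring, 8 rose and Nup107 did not pass. Nup43, a peripheral propeller subunit, had 13.4, 15.1 and 14.0 CPM in DP and 4.79, 5.56 and 5.43 CPM in DN. The groups were apart, with a log2 fold change of 1.44 ± 0.13 (edgeR adjusted p = 1.15e-15). Nup37, a second peripheral subunit, had 31.6, 31.1 and 29.1 CPM in DP and 13.0, 13.0 and 12.0 CPM in DN. Its log2 fold change was 1.27 ± 0.09 (edgeR adjusted p = 3.46e-20), with all DP libraries higher. Nup85, Seh1l, Nup133, Nup160, Ahctf1 (ELYS, which brings the complex to chromatin) and Sec13 (also a COPII coat subunit) rose by log2 fold changes of 0.30 to 1.04. Nup107 had 214, 213 and 212 CPM in DP and 211, 231 and 231 CPM in DN; the groups overlapped, the log2 fold change of -0.07 had a 95% interval of -0.15 to 0.01 (edgeR adjusted p = 0.095), and without DN replicate 1 it was -0.11 and passed (adjusted p = 0.0103). With library totals alone Nup107 was lower in DP, at -0.27 (adjusted p = 1.58e-08).

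The spread of levels among the subunits was read per library. The SD of log2 RPKM over the 9 subunits, a measure chosen after the values were seen, was 1.07, 1.04 and 1.07 in DP and 1.46, 1.44 and 1.46 in DN. The DP libraries were all lower (exact permutation p = 0.1). Over the 5 inner ring subunits the same SD was 0.949 ± 0.0350 in DP and 1.06 ± 0.0511 in DN (exact permutation p = 0.1).

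**Figure D4:**
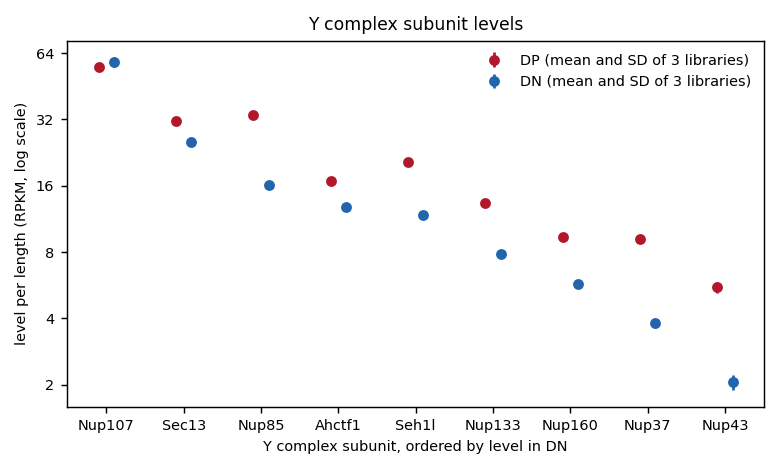
Level of each Y complex subunit in RPKM (y axis, log scale), as mean and SD of 3 libraries, DP left of DN, with subunits ordered by level in DN. Nup107 lay at 55.3 RPKM in DP and 58.2 RPKM in DN, and the other 8 subunits were higher in DP.

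The inner ring, which holds the channel proteins in place, rose in 5 of 5 genes, none at least 2-fold. Nup155 had 114, 108 and 117 CPM in DP and 59.8, 56.8 and 53.0 CPM in DN. Nup205, a large scaffold subunit, had 218, 212 and 221 CPM in DP and 118, 109 and 109.8 CPM in DN. Neither gene's groups overlapped, with log2 fold changes of 0.99 ± 0.05 and 0.95 ± 0.04 (edgeR adjusted p = 4.87e-26 and 4.41e-29). Nup188, Nup35 and Nup93 rose by log2 fold changes of 0.92, 0.68 and 0.42.

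Of the 4 transmembrane genes 2 were higher and 2 lower in DP, beside 38.3% higher and 37.6% lower of all tested genes. With 4 genes this cannot be told from those shares. Pom121, an anchor of the pore in the envelope, had 54.9, 59.5 and 54.1 CPM in DP and 25.8, 25.6 and 29.8 CPM in DN. It rose by a log2 fold change of 1.06 ± 0.07 (edgeR adjusted p = 8.83e-22). Nup210l, a paralogue of the membrane nucleoporin Nup210, had 2.43, 2.28 and 2.69 CPM in DP and 8.24, 5.45 and 7.28 CPM in DN. It fell in DP, with a log2 fold change of -1.53 ± 0.18 (edgeR adjusted p = 2.95e-11), on 41, 44 and 44 counts in DP and 105, 52 and 71 in DN. Ndc1, another pore anchor, named after its values were seen, had 38.0, 40.0 and 39.7 CPM in DP and 49.2, 58.1 and 51.7 CPM in DN, a log2 fold change of -0.43 ± 0.06 (edgeR adjusted p = 1.16e-08). The RPKM ratio of Nup210 to Ndc1, also picked afterwards, averaged 1.95 in DP and 0.770 in DN (exact permutation p = 0.1).

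All 3 tested channel genes, which carry the repeats that bind transport receptors, rose. Nup54 had 91.6, 88.3 and 94.7 CPM in DP and 49.1, 57.3 and 52.6 CPM in DN. Nup98, whose precursor also yields a Y complex subunit, had 103, 107 and 105 CPM in DP and 58.5, 61.4 and 62.8 CPM in DN. Both rose by a log2 fold change of 0.79 ± 0.05 (edgeR adjusted p = 1.87e-20 and 6.18e-22). Nup62 had 118, 123 and 121 CPM in DP and 81.0, 81.7 and 90.5 CPM in DN. Its groups did not overlap, with a log2 fold change of 0.52 ± 0.05 (edgeR adjusted p = 3.35e-15), which was 0.32 with library totals alone.

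On the cytoplasmic side, where export complexes are taken apart, 4 of 5 genes rose. Nup214, a docking site for Xpo1, had 100.4, 109 and 106 CPM in DP and 59.3, 58.7 and 60.2 CPM in DN. Rae1, a partner of Nup98 in mRNA export, had 62.3, 67.2 and 62.9 CPM in DP and 38.1, 35.5 and 38.5 CPM in DN. Their DP libraries were all higher, with log2 fold changes of 0.82 ± 0.05 and 0.78 ± 0.06 (edgeR adjusted p = 1.19e-22 and 3.02e-18). Aaas rose by 0.72 on the log2 scale. The SUMO ligase Ranbp2 rose by 0.28, which was 0.083 with library totals alone (adjusted p = 0.0343) and 0.52 with trends in GC content and length removed. Nup88, which pairs with Nup214, had 159, 153 and 153 CPM in DP and 152, 143 and 146 CPM in DN; the groups did not overlap, yet the log2 fold change of 0.08 had a 95% interval of -0.0048 to 0.16 (edgeR adjusted p = 0.0889), passed without DN replicate 1 (0.11, adjusted p = 0.0271) and turned to -0.12 with library totals alone (adjusted p = 0.00785).

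In the nuclear basket, which faces chromatin, 2 of 3 genes rose, but the summed level was 1.07 times that of DN and 0.935 times with library totals alone. Nup153 had 142, 142 and 143 CPM in DP and 107, 113 and 107 CPM in DN. It rose without overlap, by a log2 fold change of 0.39 ± 0.04 (edgeR adjusted p = 5.06e-12), which was 0.19 with library totals alone. Nup50, a cofactor in releasing import cargo, had 393, 419 and 389.5 CPM in DP and 368, 368 and 372 CPM in DN. Its rise of 0.12 ± 0.04 on the log2 scale (edgeR adjusted p = 0.00353) turned to -0.079 with library totals alone (adjusted p = 0.046). Tpr, the filament protein of the basket, had 1383, 1225 and 1237 CPM in DP and 1328, 1205 and 1191 CPM in DN; the groups overlapped, the log2 fold change of 0.05 had a 95% interval of -0.04 to 0.13 (edgeR adjusted p = 0.341), and it passed without DN replicate 1 (0.10, adjusted p = 0.00896) and turned to -0.15 with library totals alone (adjusted p = 0.00106).

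**Figure D5:**
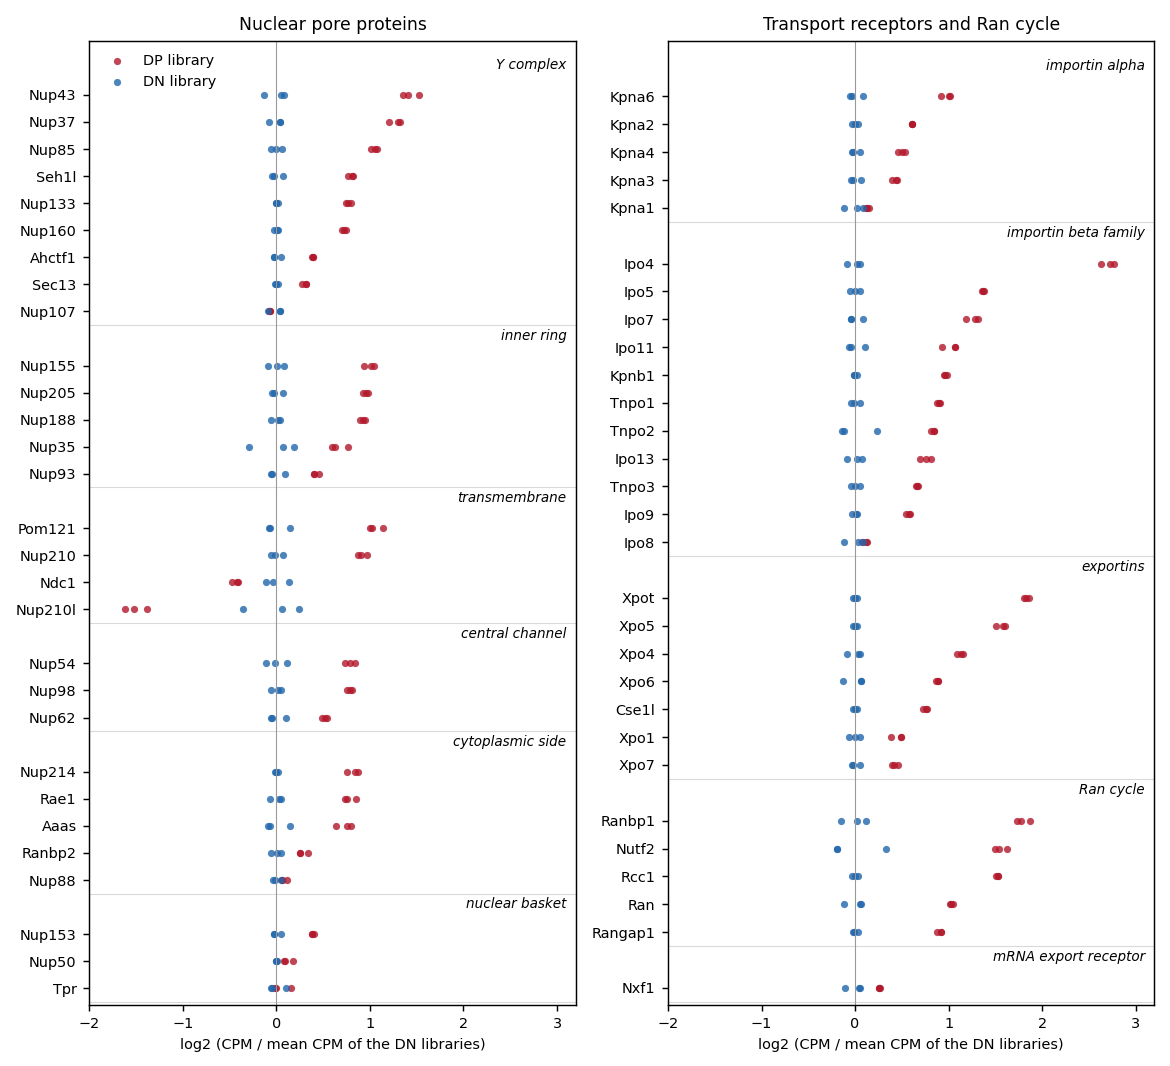
Each tested member (rows, grouped by role) in each library, as log2 of its CPM over its mean CPM in the DN libraries (x axis), DP libraries in red and DN libraries in blue. In 53 members (91.4%) all DP libraries lay to the right of all DN libraries, against 39.0% of all tested genes. Ndc1 and Nup210l were lower in all 3.

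Per length, Ran was the most abundant member in both subsets, at 259 RPKM in DP and 127 RPKM in DN. In DP the level of Kpnb1 followed at 227 RPKM, ahead of Rangap1 at 177, Kpna2 at 133 and Tpr at 122 RPKM. In DN the next places were taken by Tpr at 118 RPKM and Kpnb1 at 117 RPKM, which did not differ beyond their spread. Ipo5 ranked 6 in level in DP and 10 in DN. Across the 58 members the log2 fold change had a Pearson r of -0.0388 and a Spearman rho of -0.192 with mean log2 RPKM, given as a description over genes that share libraries. Reads of Ranbp2, Nutf2 and Kpna2 may be split with copies, since the annotation names 12, 2 and 1 pseudogenes after them, and Ranbp1 shares 16.9% of its exonic bases on the same strand with Gm49776.

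Genes outside the name rule that work beside the pore were read from lists, whose counts stand beside 38.3% of all tested genes higher and 37.6% lower, or 29.1% and 47.4% with library totals alone. Of 24 tested partners in mRNA export, 16 rose and 6 fell (13 and 7 with library totals alone), with a median log2 fold change of 0.40. The helicases Ddx39 and Ddx39b and the cap-binding subunit Ncbp1 rose by 0.94, 0.73 and 0.82. Of 11 tested adaptors and Ran-binding proteins, 8 rose and 1 fell under either scaling, with a median of 0.92. Heatr3 rose by 2.49 ± 0.08, and the ribosomal subunit export factors Ltv1 and Nmd3 by 1.71 ± 0.04 and 1.06 ± 0.05 (edgeR adjusted p = 1.38e-37, 4.74e-41 and 1.91e-26). The SUMO pathway rose in 8 of 11 genes and fell in 2 (4 and 2 with library totals alone), with a median of 0.27.

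Of the genes of the lamina and envelope, 19 were tested: 5 rose and 9 fell (3 and 13 with library totals alone), with a median log2 fold change of -0.25. Over all tested genes 38.3% were higher and 37.6% lower in DP (29.1% and 47.4% with library totals alone). Syne1 and Syne2, which link the nucleus to the cytoskeleton, averaged 79.9 and 18.5 CPM in DP and 266 and 80.4 CPM in DN, and Lbr, the lamin B receptor, averaged 93.5 CPM in DP and 176 CPM in DN. All 3 fell, with log2 fold changes of -1.73, -2.12 and -0.91 (edgeR adjusted p = 1.73e-42, 5.34e-38 and 7.02e-28). Among 14 S phase genes 11 rose and 3 fell (4 and 4 with library totals alone), and their summed level was 6593 to 6813 CPM in DP and 6217 to 6335 CPM in DN. Among 17 mitosis genes 7 rose and 7 fell, near the shares of all tested genes (5 and 10 with library totals alone). Their summed level was 10935 to 11862 CPM in DP and 13868 to 15015 CPM in DN. Mki67 alone averaged 4936 CPM in DP and 7185 CPM in DN and weighs heavily in this sum, which therefore does not describe the 17 genes alike. The part of these cell cycle levels in the transport results was not tested.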

How the data were processed

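PolyA RNA of 3 DP and 3 DN libraries was sequenced with a stranded kit, per the labels' protocols. The authors deposited raw gene counts for each library. Trim Galore 0.6.6, STAR 2.7.10a, HTSeq 0.13.5 and the build mm10 are named in the submitters' processing notes; strand setting, treatment of multiply mapped or duplicate reads and annotation release were not given in the sources used here. Summary entries that name no gene averaged 9.56% of the table in DP and 12.6% in DN, and were left out. Members and lists were chosen with earlier results of these data known. Genes kept by filterByExpr (minimum count 10) were scaled by TMM and tested with edgeR 4.0.16 (quasi-likelihood, R 4.3.3, Benjamini-Hochberg over 11296 genes, threshold 0.05), without a block. SEs are from the fold change and its F statistic. CPM uses TMM sizes, and RPKM divides by GENCODE M21 exon length. Summed levels, shares and ratios were compared by exact two-sided permutation. DP libraries were 1.88 times as deep as DN libraries, and 3 counts were worth 0.155 to 0.183 CPM in DP and 0.236 to 0.315 CPM in DN, counting error only. The fit was tested on simulated data. Alternatives were other scalings and filters, DESeq2 1.42.0, limma-voom (limma 3.58.1), thresholds, thinning of DP counts, GC and length trends, a replicate block and leaving out libraries. Values per library are given for Ran, Kpnb1, Xpo1, Kpna2, Nup98 and Nup62, for the 2 called members of largest change in each role and for called members opposite to their role; other members with such values, among them the 3 not called, were chosen afterwards.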

Additional observations from a re-analysis of the deposited data

How the results depend on the processing

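Under 21 alternatives besides a minimum fold, 51 of 58 members kept direction and call, and 52 did when 1 library or a same-numbered pair was left out. The median member log2 fold change of 0.78 was 0.75 with upper-quartile factors, 0.59 with library totals alone, 0.86 with no filter and 0.76 with a minimum count of 50. Library totals alone gave 6 lower members, a summed member level of 0.50 (log2 DP over DN, against 0.70) and 38.1% of called genes higher in DP, against 50.5%. They also turned Ipo8 to -0.083, Kpna1 to -0.069, Nup50 to -0.079, Nup88 to -0.12 and Tpr to -0.15. Under this scaling Ranbp2 was 0.083, Sec13 0.11 and Nup107 -0.27. Removing GC and length trends gave 55 members higher and 3 lower. Testing against a minimum fold of 1.5 left 3876 genes changed, with 36 members higher and 1 lower. By counts not divided by length, the importin alpha share differed (DP minus DN) by 2.03 percentage points for Kpna6 and -3.83 for Kpna1, against 1.15 and -2.08. Correlations of same-numbered deviations were 0.068, 0.001 and -0.011, and those of unlike numbers ran from -0.053 to 0.051. Values so near each other cannot tell whether library numbers pair the samples. The replicate block gave 8589 changed genes, 53 members higher and 2 lower. Low counts limit Nup210l and Nutf2 most.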
